A study of Rattus norvegicus with 23 samples.

Results

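The synaptic vesicle release genes described here are 9 genes: the synapsins Syn1 and Syn2, the SNARE proteins Stx1a, Snap25 and Vamp2, the complexins Cplx1 and Cplx2, the calcium sensor Syt1 and the glutamate transporter of the vesicle, Slc17a7. They were taken by name, with earlier results of these data known. Every probe set that the array's annotation assigned to one of them alone was used. This gave 16 probe sets for the 9 genes, out of 31042 gene probe sets on the array and 14217 genes with a name, and 15 of the 16 passed the filter on low values. RNA of the hippocampal CA3 field was measured in 23 male Long-Evans rats, with 1 Affymetrix Rat Genome 230 2.0 array per animal. Young rats were 6 months old (n = 9). Aged rats were 24 to 26 months old and were divided by a learning index from the water maze into animals that scored within the range of the young, called aged unimpaired (n = 6), and animals that scored worse, called aged impaired (n = 8). No group was treated, and the CA3 field was separated from its neighbours by microdissection. The study compared the 3 groups with one another.

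At a presynaptic terminal, vesicles are filled with transmitter by a transporter, held in a cluster by synapsins, and brought to the membrane, where a SNARE complex of syntaxin, SNAP-25 and synaptobrevin pulls vesicle and plasma membrane together. Complexin binds the assembled SNARE complex, and synaptotagmin senses calcium and triggers fusion. In CA3, glutamate release of this kind takes place at the recurrent collaterals of the pyramidal neurons, and the mRNAs measured here come largely from the cell bodies in the dissected tissue rather than from the terminals that end there.

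Promoter sequences are shown for Syn1, Slc17a7 and Stx1a, the members for which both probe sets of the gene were lower in an aged group with at least 1 of them passing the test. They are the bases before the gene start as given by RefSeq on assembly GRCr8, on the gene's own strand, and bases inside the annotated gene span are not printed, so that some of the 250 bases searched for Slc17a7 and Stx1a are missing. Syn1 lies on chromosome X (3725745 to 3780940), Slc17a7 on chromosome 1 (104786172 to 104798049) and Stx1a on chromosome 12 (27278517 to 27306547, minus strand). Capitals mark the letters of 3 motifs searched on both strands, the cAMP response element TGACGTCA, the GC box GGGCGG and the EGR1 site GCGNGGGCG, and the letters of the last 2 can overlap.
Syn1, chrX:3725495-3725744, plus strand: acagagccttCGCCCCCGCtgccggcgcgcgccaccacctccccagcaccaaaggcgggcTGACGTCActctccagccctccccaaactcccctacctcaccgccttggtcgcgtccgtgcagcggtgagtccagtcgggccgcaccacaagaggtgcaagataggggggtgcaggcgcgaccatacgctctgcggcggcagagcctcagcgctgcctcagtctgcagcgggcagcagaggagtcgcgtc
Slc17a7, chr1:104785955-104786171, plus strand: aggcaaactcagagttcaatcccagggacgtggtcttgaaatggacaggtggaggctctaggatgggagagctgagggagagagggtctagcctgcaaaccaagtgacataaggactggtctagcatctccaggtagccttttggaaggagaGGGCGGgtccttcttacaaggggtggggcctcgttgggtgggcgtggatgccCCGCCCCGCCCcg
Stx1a, chr12:27306548-27306721, minus strand: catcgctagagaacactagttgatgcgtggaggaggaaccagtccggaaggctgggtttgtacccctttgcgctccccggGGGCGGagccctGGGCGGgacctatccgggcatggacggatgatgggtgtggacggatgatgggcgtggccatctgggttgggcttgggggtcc
Of the 9 members, 8 had a promoter entry. The cAMP response element was found in 1 of the 8, Syn1, with its first base 190 bases before the start, against 1.59% of 33469 RefSeq promoters searched over the same 250 bases. The GC box was found in 7 of the 8 (30.5% of all promoters), with Syn1 the one without it, and the EGR1 site in 4 of the 8 (4.29% of all promoters), namely Syn1, Syn2, Syt1 and Vamp2. A match is a description of the letters, not a site shown to be bound.

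The array values are on the log2 scale, so that a difference of 1 is a doubling, and levels of different probe sets cannot be set against each other. Between arrays the tested probe sets correlated with a mean r of 0.9845 to 0.9900. The gap between the control rows named GAPDH 5' and GAPDH M was 2.46 in young 7 and 2.39 in aged unimpaired 6, the highest values of the 23. The next highest was 2.32 in aged unimpaired 1 and the lowest 2.02 in aged impaired 1, so aged unimpaired 6 did not stand apart by its gap. Aged unimpaired 6 had the lowest value of all 23 animals in 7 of the 15 tested probe sets, and young 7 had the lowest young value in 7 of 15. Results are therefore also given without both animals, a choice made after seeing these values. A low place did not always go with a large gap: aged impaired 2, with a gap of 2.03, had the lowest value of all 23 animals in 5 of the 15, among them both Syn1 probe sets and Stx1a 1387360_at.

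Across the 15 tested probe sets, the aged unimpaired rats stood lowest most often. Their group mean was the lowest of the 3 groups for 10 probe sets, the aged impaired mean for the other 5, and the young mean for 0. In aged unimpaired against young rats, 4 of the 15 probe sets fell and 0 rose, where 0.696% of all 14647 tested probe sets fell and 1.37% rose. All 15 differences were below 0, against 50.9% of all tested probe sets, with a median of -0.22 beside -0.00 over all. In aged impaired against young rats, 3 of 15 fell and 0 rose, where 5.88% of all tested probe sets fell and 3.88% rose, and 10 of 15 differences were below 0 (56.4% of all), with a median of -0.05 beside -0.02. Between the aged groups, 1 of 15 probe sets was higher in the impaired rats and 0 were lower, where 0.676% of all were higher and 0.102% lower, 5 of 15 differences were below 0 (59.3% of all), and the median was 0.10 beside -0.02. With both aged groups pooled against young, 4 of 15 fell and 0 rose, where 3.56% of all fell and 3.34% rose, 15 of 15 differences were below 0 (54.1% of all), and the median was -0.09 beside -0.01. The members were chosen with earlier results of these data known, so the shares over all probe sets stand beside the counts as a description. They are no test of the members as a set. Several of these probe sets read the same gene. Counted once per gene by its brightest probe set, 1 of the 9 members fell in aged unimpaired rats and 2 in aged impaired rats against young, 3 fell with the aged groups pooled, and 1 was higher in impaired than in unimpaired rats, where 5 of 9 differences were below 0 with a median of -0.01. Both comparisons with young use the same 9 young animals, so the counts are given side by side and not as independent evidence. In tissue RNA, fewer cells of a type and less RNA per cell cannot be told apart.

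**Figure D1:**
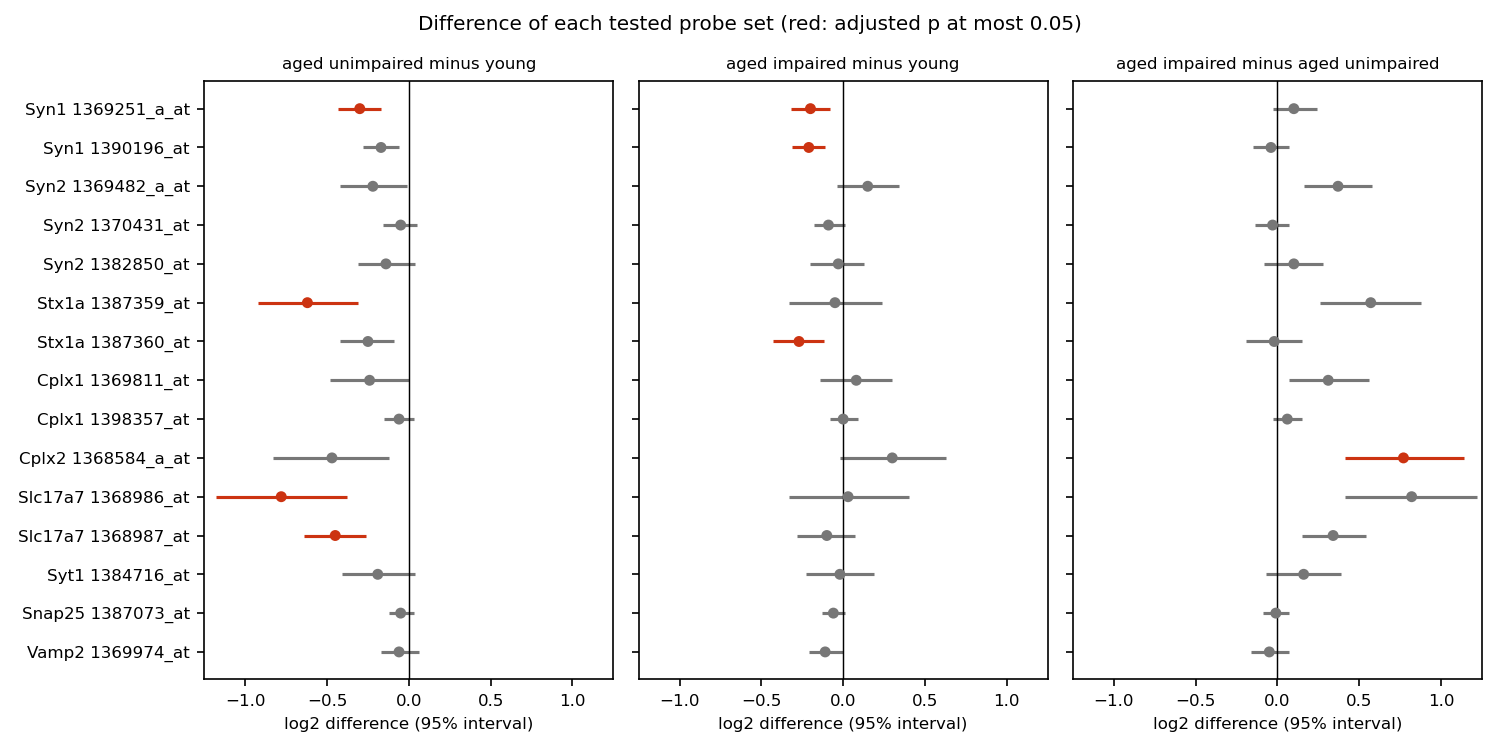
Log2 differences of the 15 tested probe sets in the 3 comparisons between groups, with bars for the 95% interval of the limma fit and red for an adjusted p of at most 0.05. In aged unimpaired against young rats all 15 points lie below 0 and 4 are red, in aged impaired against young rats 3 are red, and between the aged groups 1 is red, Cplx2 at 0.77.

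Syn1 encodes synapsin I, a phosphoprotein that tethers vesicles to each other and to actin, and its probe set 1369251_a_at was the one member probe set called in each aged group against young rats. It had values from 10.54 to 10.91 in young rats (median 10.74), from 10.35 to 10.53 in aged unimpaired rats (median 10.43) and from 10.20 to 10.69 in aged impaired rats (median 10.61). All 6 aged unimpaired animals thus lay below every young animal, a separation found in 0.287% of all tested probe sets, while the aged impaired animals overlapped the young, with 3 of 8 below all of them. The difference was -0.30 ± 0.06 (SE) in aged unimpaired rats (95% interval -0.43 to -0.17, a 1.23-fold fall, limma adjusted p = 0.0161) and -0.20 ± 0.06 in aged impaired rats (-0.32 to -0.08, a 1.15-fold fall, adjusted p = 0.0363). Without young 7 and aged unimpaired 6, these were -0.31 (adjusted p = 0.0245) and -0.22 (adjusted p = 0.0237). The fall in impaired rats missed the threshold when any 1 of young 1, 2, 3, 4, 8 or 9 or aged impaired 2, 3 or 4 was left out, at differences of -0.15 to -0.20 and adjusted p of up to 0.0675; without aged impaired 2, the lowest animal, it was -0.15 (adjusted p = 0.0646). It was also lost in 6 of 11 other settings, among them centring the arrays on their medians (-0.19, adjusted p = 0.0558), quantile normalization (-0.17, adjusted p = 0.0904) and a fit of only the groups compared (-0.20, adjusted p = 0.0656). The fall in unimpaired rats passed whichever 1 animal was left out, and was lost with a block on the replicate number (adjusted p = 0.0922).

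The other Syn1 probe set, 1390196_at, ran from 11.62 to 11.85 in young rats (median 11.67), from 11.44 to 11.66 in aged unimpaired rats (median 11.52) and from 11.25 to 11.63 in aged impaired rats (median 11.52). Only 1 aged impaired animal of 8 and 1 aged unimpaired animal of 6 reached the range of the young. In aged impaired rats the difference from young was -0.21 ± 0.05 on the log2 scale (95% interval -0.31 to -0.11, 1.16-fold, limma adjusted p = 0.0083). This call held whichever 1 animal was left out, at differences of -0.23 to -0.18. The difference was -0.21 (adjusted p = 0.0167) without the 2 animals left out together, a choice made after seeing the values. In aged unimpaired rats the difference was -0.17 (-0.28 to -0.06) and did not pass (adjusted p = 0.0873). The aged groups differed by -0.04 (-0.15 to 0.07) on this probe set and by 0.10 (-0.03 to 0.24) on 1369251_a_at, and neither difference passed (adjusted p = 0.774 and 0.503). With both aged groups pooled against young, both Syn1 probe sets fell, by 0.25 and 0.19 on the log2 scale (limma adjusted p = 0.00622 and 0.00829).

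Syn2, which encodes synapsin II, is read by 3 probe sets, and none passed the limma test in a comparison of all animals. Probe set 1369482_a_at ranged from 10.01 to 10.65 in young rats (median 10.32), from 9.71 to 10.50 in aged unimpaired rats (median 10.11) and from 10.32 to 10.71 in aged impaired rats (median 10.46). The impaired animals filled the upper part of the range, with 3 of 8 above every unimpaired animal, and the difference between the aged groups was 0.37 ± 0.10 (95% interval 0.16 to 0.58, limma adjusted p = 0.0776). Without aged unimpaired 7, the animal with the highest value of its group, that difference passed, at 0.45 (adjusted p = 0.00979). Group means of 1370431_at were 10.81 ± 0.07 (SD) in young, 10.76 ± 0.08 in aged unimpaired and 10.72 ± 0.12 in aged impaired rats, and those of 1382850_at were 9.93 ± 0.19, 9.79 ± 0.15 and 9.89 ± 0.16. For these 2 probe sets the 3 groups overlapped, and their differences from young lay between -0.14 and -0.03.

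Among the SNARE proteins, Stx1a, which encodes the plasma membrane syntaxin 1A, was read by 2 probe sets, of which 1387359_at passed in aged unimpaired and 1387360_at in aged impaired rats, while the differences of 1387360_at were alike in both aged groups. Probe set 1387359_at had values from 7.21 to 8.08 in young rats (median 7.86), from 6.41 to 7.60 in aged unimpaired rats (median 7.29) and from 7.60 to 8.02 in aged impaired rats (median 7.69). The aged impaired animals lay inside the range of the young, and 7 of the 8 lay above every aged unimpaired animal. In aged unimpaired against young rats it fell by 0.62 on the log2 scale (SE 0.15, 95% interval -0.92 to -0.31, 1.53-fold, limma adjusted p = 0.03), with 2 of 6 animals below every young animal. The difference between the aged groups was 0.57 ± 0.15 (0.26 to 0.88) and did not pass (adjusted p = 0.0709). The fall in unimpaired rats was -0.54 (adjusted p = 0.0149) without young 7 and aged unimpaired 6. Leaving out any 1 of young 1, 3 or 4 or aged unimpaired 1, 4 or 6 ended the call, with differences of -0.64 to -0.46 and adjusted p of up to 0.073, and so did no filter (adjusted p = 0.0911) and a fit of only the groups compared (adjusted p = 0.0827). Without aged unimpaired 2 or 7, the difference between the aged groups passed, at 0.65 and 0.63 (adjusted p = 0.0464 and 0.0313).

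Stx1a probe set 1387360_at ran from 9.23 to 9.64 in young rats (median 9.48), from 8.96 to 9.37 in aged unimpaired rats (median 9.27) and from 8.88 to 9.44 in aged impaired rats (median 9.24). Both aged groups were shifted down by a like amount and overlapped the young. In aged impaired rats it fell by 0.27 on the log2 scale (SE 0.07, 95% interval -0.43 to -0.12, 1.21-fold, limma adjusted p = 0.022), with 4 of 8 animals below every young animal. The call held whichever 1 animal was left out, at -0.23 (adjusted p = 0.0458) without aged impaired 2, and the difference was -0.27 (adjusted p = 0.0258) without young 7 and aged unimpaired 6. It ended with no filter on low values (adjusted p = 0.0536). A block on the replicate number and the control-row gap as a term ended it too, at adjusted p of up to 0.0558. In aged unimpaired rats the difference was -0.25 (-0.42 to -0.09, adjusted p = 0.102), and the aged groups differed by -0.02 (-0.19 to 0.15, adjusted p = 0.945). With both aged groups against young it fell by 0.26 (adjusted p = 0.0175).

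Snap25, which bridges the other SNARE proteins in the complex, had no called difference in the fit of the deposited values. Its means were 13.69 ± 0.08 (SD) in young, 13.65 ± 0.05 in aged unimpaired and 13.63 ± 0.06 in aged impaired rats, and the intervals of its differences from young reached from -0.13 to 0.03. After quantile normalization it passed in aged impaired against young rats, at -0.09 (adjusted p = 0.028). Vamp2, which encodes synaptobrevin 2 of the vesicle membrane, had means of 11.54 ± 0.11, 11.48 ± 0.06 and 11.43 ± 0.11 on probe set 1369974_at. Its difference in aged impaired rats was -0.11 (95% interval -0.21 to -0.00, limma adjusted p = 0.179). The other Vamp2 probe set, 1371160_at, had the scale's lowest value, 2.19, in all 23 animals and was not tested.

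Cplx2 encodes complexin 2, which clamps and then promotes fusion by the SNARE complex, and it gave the one called difference between the aged groups. Probe set 1368584_a_at ran from 8.39 to 9.15 in young rats (median 8.75), from 7.62 to 9.04 in aged unimpaired rats (median 8.21) and from 8.60 to 9.49 in aged impaired rats (median 9.10). The young lay between the 2 aged groups, 5 of the 8 impaired animals lay above every unimpaired animal, and the highest unimpaired animal, aged unimpaired 7, stood among the impaired. The impaired mean was higher than the unimpaired by 0.77 ± 0.18 (SE) on the log2 scale (95% interval 0.41 to 1.14, 1.71-fold, limma adjusted p = 0.0418). Against young rats, neither aged group passed: the difference was -0.47 (-0.83 to -0.12, adjusted p = 0.153) in unimpaired and 0.30 (-0.02 to 0.63, adjusted p = 0.227) in impaired rats. The difference between the aged groups lost its call when any 1 of aged unimpaired 1, 4, 6 or 8 or aged impaired 1, 2, 3, 6, 7 or 8 was left out, at differences of 0.64 to 0.81 and adjusted p of up to 0.118. The call also ended with no filter (0.77, adjusted p = 0.142) and with only the groups compared (0.77, adjusted p = 0.103). It was 0.64 (adjusted p = 0.109) without aged unimpaired 6 and young 7 together, and 0.93 (adjusted p = 0.00299) without aged unimpaired 7, when 5 of the 15 member probe sets passed in place of 1. Without that animal, Cplx2 was also lower in unimpaired than in young rats, at -0.63 (adjusted p = 0.0334).

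Cplx1 encodes complexin 1 and showed no called difference. On probe set 1369811_at the values ran from 9.61 to 10.37 in young rats (median 10.04), from 9.22 to 10.18 in aged unimpaired rats (median 9.85) and from 9.96 to 10.31 in aged impaired rats (median 10.12). The impaired animals were the tightest group, at the upper end, and the difference between the aged groups was 0.31 ± 0.12 (95% interval 0.07 to 0.56, limma adjusted p = 0.198). The brighter probe set, 1398357_at, had means of 12.07 ± 0.06 (SD), 12.01 ± 0.08 and 12.07 ± 0.09 in young, aged unimpaired and aged impaired rats. Syt1, which encodes the calcium sensor synaptotagmin 1, had means of 8.77 ± 0.29, 8.59 ± 0.13 and 8.75 ± 0.16 and no called difference, with intervals against young that reached from -0.41 to 0.19.

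Slc17a7 encodes VGLUT1, the transporter that loads glutamate into vesicles of hippocampal pyramidal neurons, and both of its probe sets fell in aged unimpaired rats. Probe set 1368987_at ran from 12.71 to 13.06 in young rats (median 12.84), from 11.92 to 12.80 in aged unimpaired rats (median 12.46) and from 12.63 to 12.94 in aged impaired rats (median 12.80). All but 1 of the 6 unimpaired animals lay below every young animal, and the impaired animals lay mostly among the young. The difference from young was -0.45 ± 0.09 (SE) in unimpaired rats (95% interval -0.64 to -0.26, 1.36-fold, limma adjusted p = 0.0111) and -0.10 (-0.28 to 0.07, adjusted p = 0.46) in impaired rats. The fall in unimpaired rats held whichever 1 animal was left out, with differences of -0.52 to -0.35. It was -0.35 (adjusted p = 0.0233) without young 7 and aged unimpaired 6. The call was lost with a block on the replicate number (-0.45, adjusted p = 0.054). With both aged groups against young it fell by 0.28 (adjusted p = 0.0284), a call that ended without young 1, 2 or 3 (-0.26 to -0.25, adjusted p of up to 0.0648).

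On Slc17a7 probe set 1368986_at the values ran from 10.21 to 11.56 in young rats (median 11.10), from 9.57 to 11.01 in aged unimpaired rats (median 10.20) and from 10.72 to 11.33 in aged impaired rats (median 11.12). Young 7 was the lowest young animal, at 10.21 with the next at 10.74, and 6 of 8 impaired animals lay above every unimpaired animal. In unimpaired rats it fell by 0.78 on the log2 scale (SE 0.19, 95% interval -1.18 to -0.38, 1.72-fold, limma adjusted p = 0.033), with 3 of 6 animals below every young animal. In impaired rats the difference from young was 0.03 (-0.33 to 0.40, adjusted p = 0.924). The fall was -0.75 (adjusted p = 0.0233) without young 7 and aged unimpaired 6, and it missed the threshold when any 1 of young 1 to 5 or aged unimpaired 1, 4, 6 or 8 was left out, at differences of -0.78 to -0.64 and adjusted p of up to 0.101. It also missed the threshold with no filter (adjusted p = 0.1) and with only the groups compared (adjusted p = 0.0875). The difference between the aged groups did not pass on either probe set, at 0.82 ± 0.20 (0.41 to 1.22, adjusted p = 0.0504) on 1368986_at and 0.34 ± 0.09 (0.15 to 0.54, adjusted p = 0.0763) on 1368987_at. The first lay at the threshold and passed in 6 of 11 other settings, at adjusted p of 0.0387 with the arrays centred on their medians, 0.0399 after quantile normalization, 0.0402 with array weights, 0.0434 with the stricter filter, 0.0478 with an intensity trend and 0.0498 with values below 4 set to 4. Without aged unimpaired 7 both probe sets passed, at 0.96 (adjusted p = 0.00592) and 0.42 (adjusted p = 0.0096). Without aged unimpaired 2 or aged impaired 5, 1368986_at alone passed, at 0.88 and 0.87 (adjusted p = 0.0466 and 0.0387).

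**Figure D2:**
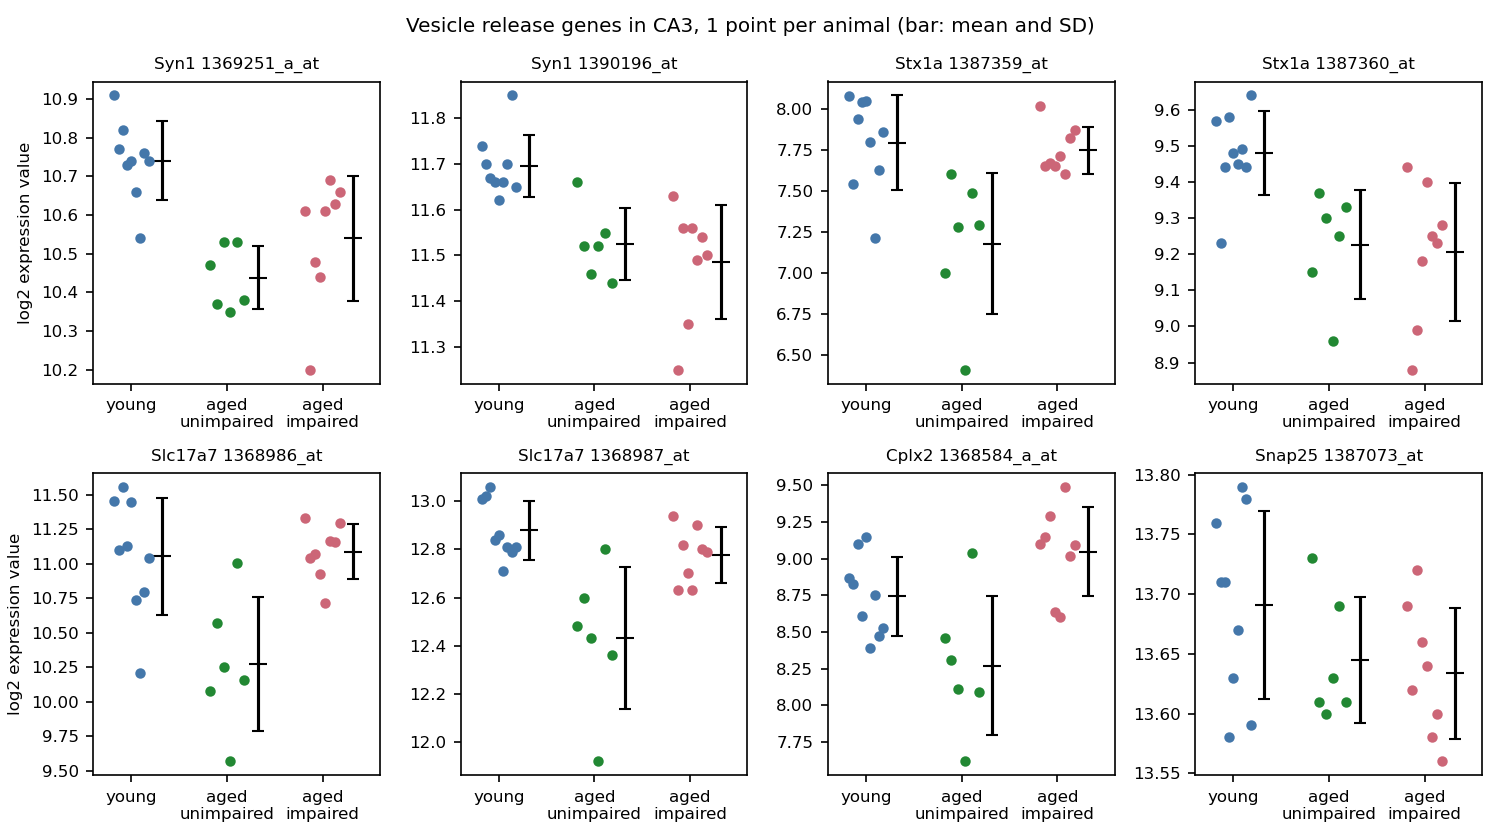
Log2 expression values of 8 member probe sets with 1 point per animal (9 young, 6 aged unimpaired and 8 aged impaired rats) and a bar for the group mean and SD, each panel on its own axis that does not start at 0. Syn1 1369251_a_at separates all aged unimpaired from all young animals, Slc17a7 and Stx1a 1387359_at are low in aged unimpaired animals with the lowest point at aged unimpaired 6 (9.57 for Slc17a7 1368986_at), and Snap25 stays between 13.56 and 13.79.

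Probe sets of one gene moved unequally between the aged groups. For each gene with several probe sets, the dimmer minus the brighter one was taken within each animal and compared between groups with exact two-sided permutation tests, 21 in all, adjusted by Benjamini-Hochberg. For Stx1a this within-animal difference was -2.05 ± 0.29 (SD, n = 6) in aged unimpaired and -1.46 ± 0.16 (n = 8) in aged impaired rats, a shift of 0.59 (exact permutation, adjusted p = 0.00699). For Slc17a7 it was -2.16 ± 0.23 and -1.69 ± 0.13, a shift of 0.47 (exact permutation, adjusted p = 0.00699), and for Syn2 1369482_a_at minus 1370431_at it was -0.66 ± 0.22 and -0.25 ± 0.14, a shift of 0.40 (exact permutation, adjusted p = 0.00699). In these 3 pairs the impaired rats had the dimmer probe set raised relative to the brighter. Another pair passed in the opposite direction: for Syn2 1382850_at minus 1369482_a_at the difference was -0.31 ± 0.20 in aged unimpaired and -0.58 ± 0.12 in aged impaired rats, a shift of -0.27 (exact permutation, adjusted p = 0.028). Syn2 1369482_a_at was thus raised in impaired rats relative to both other Syn2 probe sets, the brighter and the dimmer. The Syn1 and Cplx1 pairs shifted by 0.14 and 0.25 in the same comparison and the third Syn2 pair by 0.14, and these did not pass (exact permutation, adjusted p = 0.0586, 0.0569 and 0.105). Syn2 pairs also passed in aged impaired against young rats. There 1369482_a_at minus 1370431_at shifted by 0.24 and 1382850_at minus 1369482_a_at by -0.18 (exact permutation, adjusted p = 0.0371 and 0.0302). For Stx1a, Slc17a7 and Syn2, the size of a difference between the aged groups therefore depends on which probe set of a gene is read.

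The members also differed in how they followed the control rows of the array. In each gene with several tested probe sets, the brightest had the least negative or a positive r with the control-row gap. The split was not complete, since the brighter probe sets of Slc17a7 and, by rank, Cplx1 followed the gap too. The part of the gap in the shifts between probe sets was not tested. The gap between the rows named GAPDH 5' and GAPDH M was 2.22 ± 0.10 (SD) in young, 2.28 ± 0.09 in aged unimpaired and 2.14 ± 0.09 in aged impaired rats. The names of the control rows are out of register with their values, since the row named GAPDH 3' lay at 2.21, and both rows used here followed the same gene probe set, unnamed here, with r of 0.93 and 0.90. The gap is therefore used as a value of each array and not as a measure of Gapdh. What it reflects was not tested. Over 23 arrays, 15 relations were computed with two-sided permutation tests and Benjamini-Hochberg adjustment. The r without young 7 and aged unimpaired 6, the 2 arrays with the largest gaps, follows each. The permutations shuffled arrays across groups, so their p-values mix differences between groups with relations between arrays of a group.

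Over all arrays, members that followed the gap were lower where it was larger, and within groups several of these relations were weak. Syn2 1369482_a_at had r = -0.79 and rho = -0.80 (permutation, adjusted p = 0.0003 and 0.00045, r = -0.71 without the 2 arrays), and Cplx1 1369811_at had r = -0.77 and rho = -0.75 (permutation, adjusted p = 0.0003 and 0.0006, then r = -0.65). Slc17a7 1368986_at had r = -0.73 and rho = -0.65 (permutation, adjusted p = 0.00035 and 0.00312, then r = -0.61). Within groups its r was -0.76 in young, -0.90 in aged unimpaired and -0.32 in aged impaired rats. Stx1a 1387359_at and Syt1 both had r = -0.63, with rho of -0.51 and -0.66 (permutation, adjusted p for r = 0.00384 for both, for rho = 0.0274 and 0.00225, then r = -0.45 and -0.44). Cplx2 had r = -0.60 and rho = -0.69 (permutation, adjusted p = 0.00565 and 0.00225, then r = -0.61), with -0.18 in young, -0.88 in aged unimpaired and -0.19 in aged impaired rats. Slc17a7 1368987_at had r = -0.50 and rho = -0.50 (permutation, adjusted p = 0.0318 and 0.0278, then r = -0.48). Syn2 1382850_at had r = -0.49 and rho = -0.55 (permutation, adjusted p = 0.0322 and 0.0183, then r = -0.36). The brighter Cplx1 probe set, 1398357_at, had r = -0.44 and rho = -0.50 (permutation, adjusted p = 0.0576 and 0.0278, then r = -0.59), with 0.40 in young, -0.89 in aged unimpaired and -0.78 in aged impaired rats. Within groups, in the same order, r was -0.80, -0.86 and -0.42 for Syn2 1369482_a_at and -0.81, -0.76 and -0.69 for Cplx1 1369811_at. For Stx1a 1387359_at it was -0.72, -0.71 and -0.15, and for Syt1 -0.71, -0.93 and -0.32. For Slc17a7 1368987_at it was -0.35, -0.83 and -0.12, and for Syn2 1382850_at -0.87, -0.30 and -0.02.

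For the remaining members no relation over all 23 arrays passed. For Syn1 the r was -0.09 on 1369251_a_at and 0.25 on 1390196_at, with rho of -0.18 and 0.11 (permutation, adjusted p for r = 0.688 and 0.347, for rho = 0.541 and 0.755, then r = 0.10 and 0.24). On 1369251_a_at the groups went opposite ways, with r of -0.62 in young, -0.53 in aged unimpaired and 0.64 in aged impaired rats, so the value over all arrays describes no group. Stx1a 1387360_at had r = 0.12, Snap25 r = 0.10 and Vamp2 1369974_at r = 0.29, with rho of 0.10, 0.03 and 0.24 (permutation, adjusted p for r = 0.688, 0.688 and 0.274, for rho = 0.755, 0.9 and 0.394, then r = 0.27, -0.12 and 0.34). Syn2 1370431_at had r = 0.10 and rho = -0.05 (permutation, adjusted p = 0.688 and 0.897, then r = 0.03). With the gap as a term in the limma fit, the difference of Cplx2 between the aged groups was 0.57 (adjusted p = 0.462) and that of Slc17a7 1368986_at was 0.42 (adjusted p = 0.498), and 0 probe sets of the array passed in that comparison, with 1276 at an unadjusted p under 0.05. In aged unimpaired against young rats, Syn1 1369251_a_at (-0.30, adjusted p = 0.0281) and both Slc17a7 probe sets (-0.60 and -0.39, adjusted p = 0.0398 and 0.0222) still passed with that term, and Stx1a 1387359_at did not (-0.50, adjusted p = 0.0518). In aged impaired against young rats, Syn1 1390196_at passed (-0.19, adjusted p = 0.0264), and Syn1 1369251_a_at (-0.20, adjusted p = 0.0635) and Stx1a 1387360_at (-0.26, adjusted p = 0.0508) did not. The part of the gap in these results was not tested beyond these fits.

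**Figure D3:**
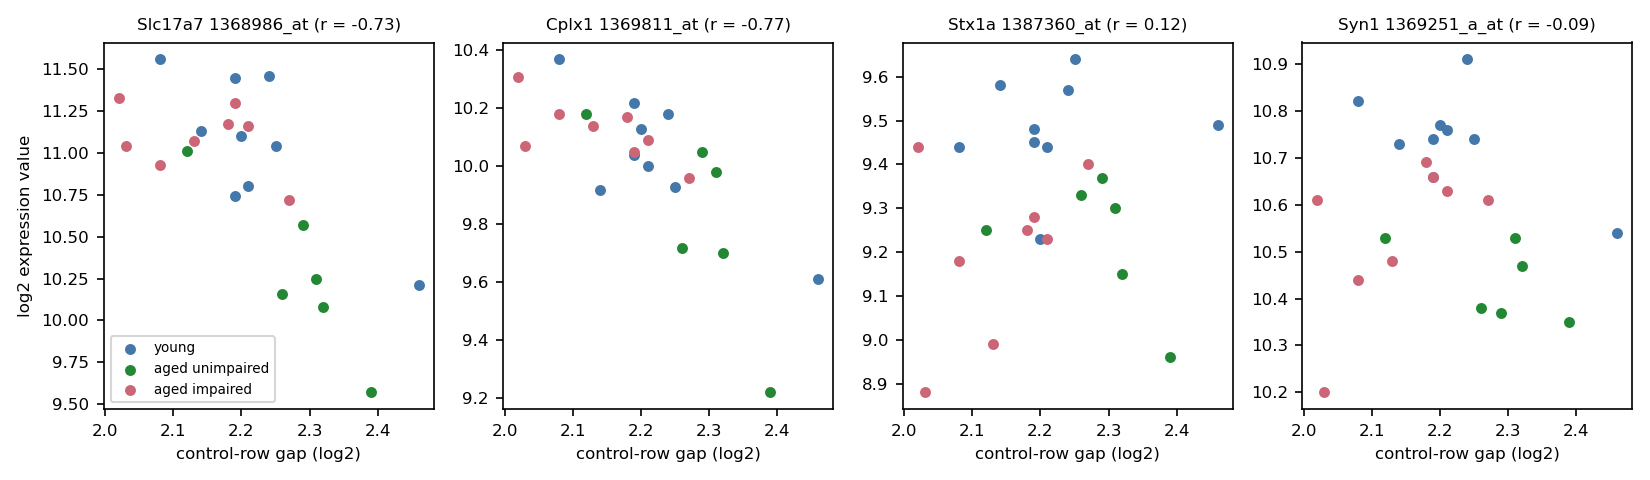
Log2 expression value against the control-row gap (log2) of the same array for 4 member probe sets, 1 point per animal coloured by group. Slc17a7 1368986_at (r = -0.73) and Cplx1 1369811_at (r = -0.77) decline with the gap. Stx1a 1387360_at (r = 0.12) shows no such relation over all animals, and in Syn1 1369251_a_at (r = -0.09) the aged impaired points rise with the gap while the others decline.

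**Figure D4:**
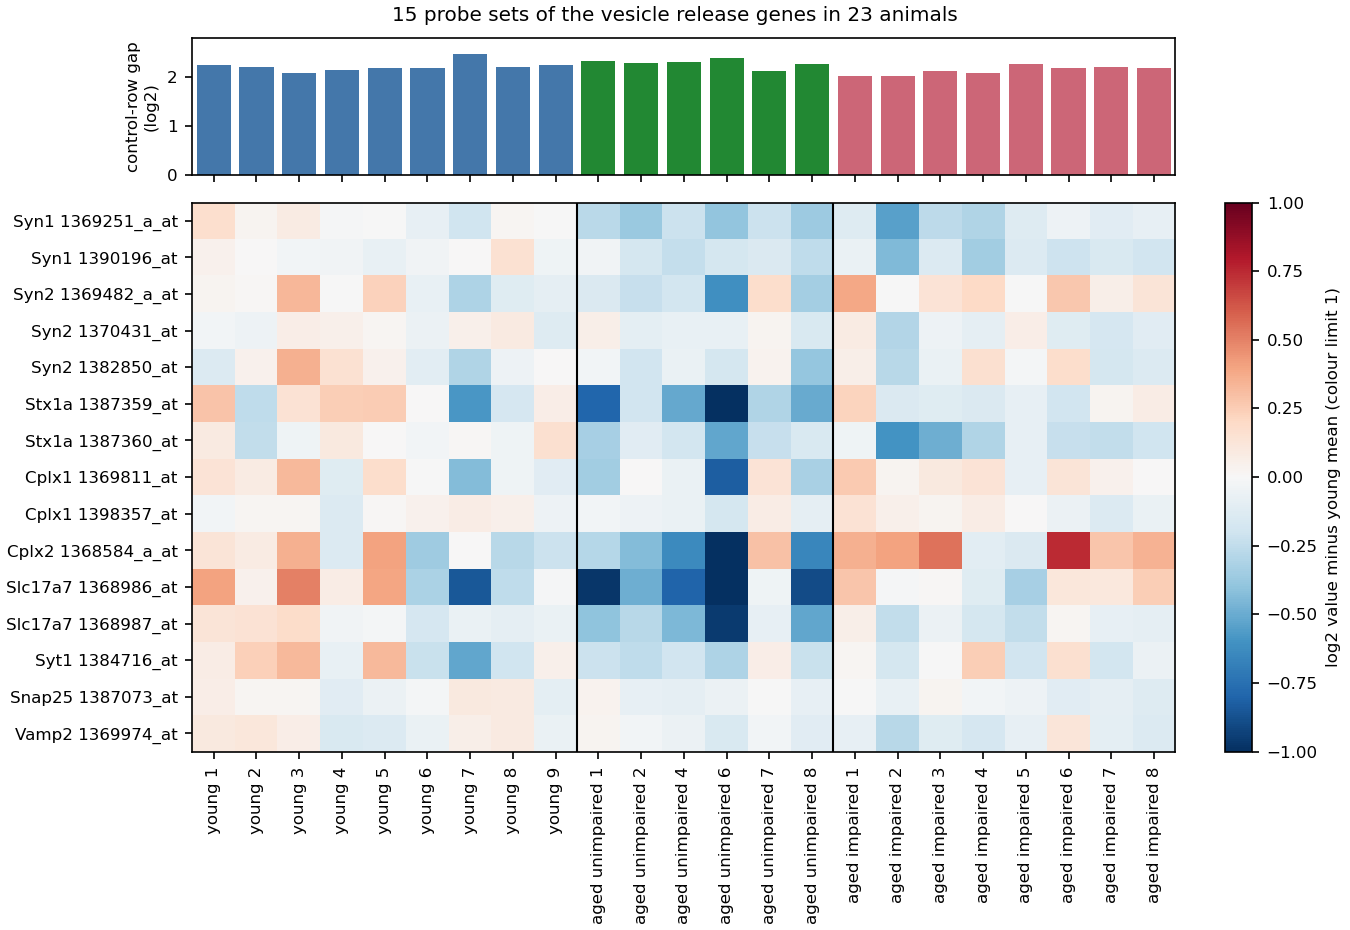
Log2 value minus the mean of the young rats for the 15 tested member probe sets (vertical) in 23 animals (horizontal), with colours limited at -1 and 1, under bars of the control-row gap (log2) of each array. Aged unimpaired 6 is the lowest of all animals in 7 rows at a gap of 2.39 and aged impaired 2 in 5 other rows at a gap of 2.03, young 7 is the lowest of the young in 7 rows at a gap of 2.46, and Cplx2 is raised in 6 of the 8 aged impaired animals.

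The rest of the vesicle cycle was read from 146 other genes on 8 lists, each by its brightest probe set, of which 102 were tested. In aged impaired against young rats, 12 of the 102 fell and 2 rose, where 5.88% of all tested probe sets fell and 3.88% rose, and the median difference was -0.07 beside -0.02 over all. In aged unimpaired against young rats 0 passed in either direction by limma, where 0.696% of all fell and 1.37% rose. With shares as low as these, a count of 0 among 102 lies near the background. In that comparison 20 of the 102 had an unadjusted p under 0.05, beside 2456 of all 14647 tested probe sets, and the median was -0.04. Between the aged groups 0 of the 102 passed, with a median of -0.02. There 13 had an unadjusted p under 0.05, beside 2221 of all 14647. Read in the same way, by the brightest probe set, 2 of the 9 members fell in aged impaired and 1 in aged unimpaired rats. Whether the members differ from the other genes was not tested.

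By function, the falls in aged impaired rats were spread over the cycle. Of 20 tested genes of the active zone, the release site at the membrane, 3 fell: Lin7b, a scaffold protein, by 0.26 on the log2 scale (limma adjusted p = 0.00211), Erc1, an active zone scaffold, by 0.25 (adjusted p = 0.0097), and Nrxn2, an adhesion molecule of the terminal, by 0.21 (adjusted p = 0.0169). Of 8 vesicle membrane proteins, Synpr (synaptoporin, a vesicle protein of mossy fibre terminals) fell by 0.35 (adjusted p = 0.0451), Scamp1 fell by 0.16 (adjusted p = 0.0173) and Sypl1 rose by 0.14 (adjusted p = 0.0495). Of 25 genes of vesicle endocytosis, 3 fell, namely Amph (amphiphysin) by 0.20, Pip5k1c, a lipid kinase, by 0.14 and Snap91, a clathrin adaptor, by 0.12 (adjusted p = 0.0272, 0.028 and 0.0144). Of 18 subunits of the proton pump that energises transmitter loading, Atp6v0e2 fell by 0.17 (adjusted p = 0.019) and Atp6v1a by 0.12 (adjusted p = 0.0339).

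Among 8 other synaptotagmins and Doc2 genes, Syt4 fell by 0.20 (adjusted p = 0.0192). Among 12 SNARE regulators, Cadps, a priming factor, fell by 0.15 (adjusted p = 0.0274) and Snapin, a SNAP-25 binding protein, rose by 0.15 (adjusted p = 0.036). Of the 8 other SNARE genes 0 passed by limma and 3 had an unadjusted p under 0.05. Of the 3 other vesicle transporters 0 passed and 1 had an unadjusted p under 0.05. Over all, 3859 of 14647 tested probe sets had such a p in this comparison. The transporter of GABA and glycine, Slc32a1, had a difference of -0.12 (95% interval -0.36 to 0.12) in aged impaired and -0.22 (-0.48 to 0.03) in aged unimpaired rats, where Slc17a7 1368987_at had -0.10 and -0.45. The zinc transporter Slc30a3 of glutamatergic vesicles had -0.09 and -0.10, with intervals of -0.36 to 0.18 and -0.39 to 0.19. In the pooled aged groups, 9 of the 102 fell and 1 rose, where 3.56% of all tested probe sets fell and 3.34% rose. Among the falls was that of Ap2s1, a clathrin adaptor subunit, by 0.16 (limma adjusted p = 0.0485).

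**Figure D5:**
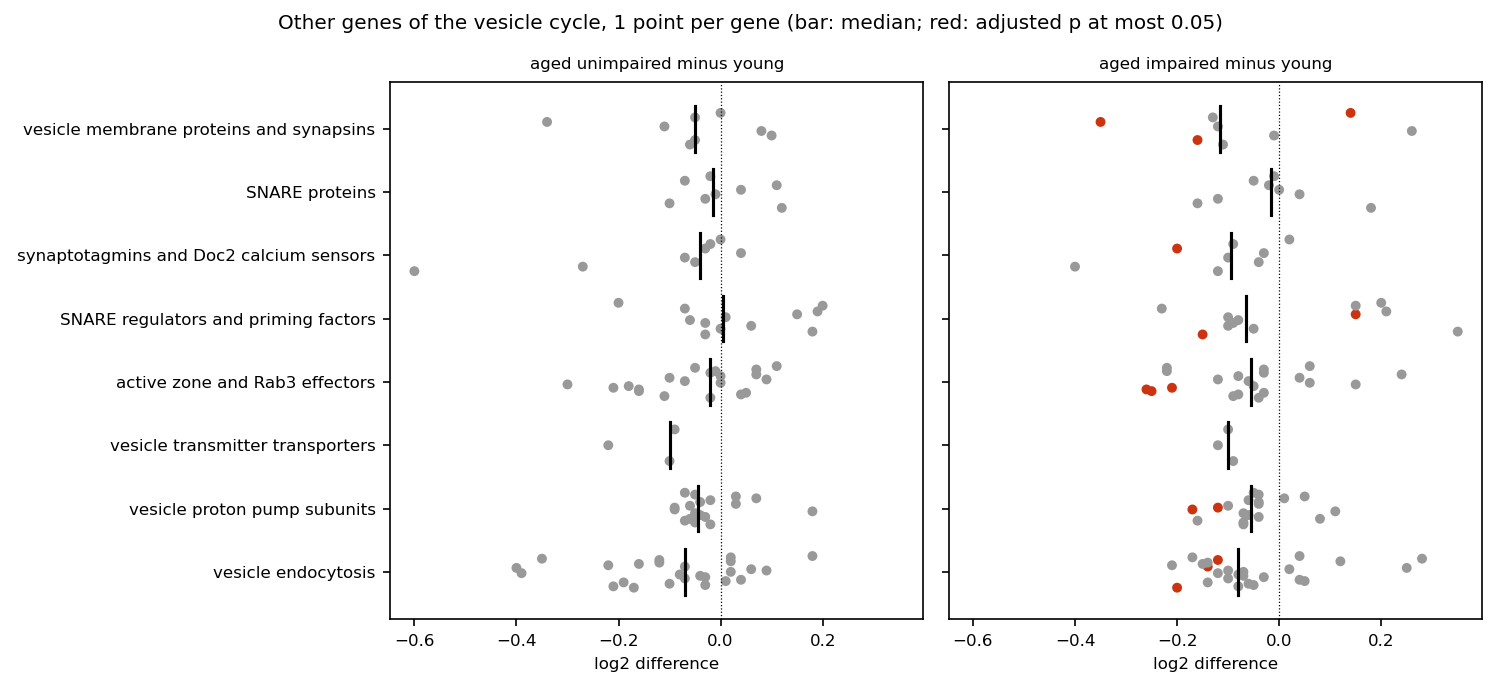
Log2 differences from young of the other genes of the vesicle cycle, 1 point per gene in 8 lists, for aged unimpaired (left) and aged impaired (right) rats on one scale, with bars for the list median and red for an adjusted p of at most 0.05. Of 102 genes none is red on the left and 14 are red on the right, 12 of them below 0, with Synpr the lowest of these at -0.35.

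The tissue was checked by markers of its cells. All 7 markers of CA3 pyramidal neurons were above a log2 value of 4, and 3 of them fell in aged impaired rats (Nrip3 by 0.30, Chgb by 0.24 and Dkk3 by 0.20, limma adjusted p = 0.00336, 0.0228 and 0.0225), with 0 of 7 called by limma in unimpaired rats and 2 at an unadjusted p under 0.05. The summed CA3 level ran from 14.54 to 14.74 in young, 14.40 to 14.55 in aged unimpaired and 14.06 to 14.61 in aged impaired rats. Of 10 markers of all neurons, 3 fell in impaired and 1 in unimpaired rats, and their summed level ran from 15.50 to 15.64, 15.46 to 15.60 and 15.39 to 15.53. All 6 tested markers of microglia rose in both aged groups, with a median difference of 0.73 in each, and their summed level of 10.41 to 10.74 in young rats did not overlap with 10.96 to 11.39 in unimpaired and 11.06 to 11.62 in impaired rats. Of 7 astrocyte markers 2 rose in both aged groups, Gfap by 0.62 in impaired and 0.53 in unimpaired rats (limma adjusted p = 0.0007 and 0.00955) and S100b by 0.21 in each (adjusted p = 0.00512 and 0.0263), and their summed level ran from 14.87 to 15.17 in young, 15.16 to 15.43 in aged unimpaired and 15.13 to 15.48 in aged impaired rats. The microglial marker Cx3cr1, the interneuron marker Gad2 and the granule cell markers Dsp and Tdo2 had a mean below 4 over the 23 animals, and the CA1 marker Dcn lay near 4, with means of 4.10, 3.73 and 4.06 in young, aged unimpaired and aged impaired rats. Other markers of the neighbouring fields lay higher. In the same order, the CA1 markers Fibcd1 and Ccn3 had means of 8.10, 8.18 and 8.27 and of 7.72, 7.77 and 8.07. Those of Wfs1 were 7.02, 7.26 and 7.50, and those of Pou3f1 5.10, 5.80 and 5.82. The granule cell marker Prox1 had 7.30, 7.29 and 7.13. Of the 5 tested CA1 markers, 0 passed by limma against young in either aged group. At an unadjusted p under 0.05 there was 1 in impaired rats, Pou3f1, and 0 in unimpaired rats. Only 1 of the 5 differences was below 0 in each aged group, with a median of 0.35 in impaired and 0.09 in unimpaired rats. In aged impaired rats, the called markers of neurons and of CA3 thus moved in the same direction as Syn1 and Stx1a and those of microglia and astrocytes in the other, and their part in that result was not tested.

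Genes whose level most resembled that of the called members over the 23 arrays are given as a description, since arrays share their processing and the control-row gap. For Syn1 1390196_at the 5 most alike genes were Cnrip1 (r = 0.90), Cabp1 (0.86), Rab15 (0.84), Sqle (0.84) and Kcnmb4 (0.83). For Stx1a 1387360_at they were Lpl (0.82), Cabp1 (0.81), Cacna1b (0.78), Zfyve27 (0.77) and Sh3bp5l (0.76). Cabp1, a neuronal calcium-binding protein, stood on both lists, and its differences from young were -0.33 in impaired and -0.23 in unimpaired rats. For Slc17a7 1368987_at the nearest were Gnao1 (0.88), Spryd3 (0.86), Ccnd2 (0.86), Neurod2 (0.85) and Svop (0.84). For Cplx2 they were Slc7a14 (0.95), Grin2a (0.93), Pacsin1 (0.92), Nfix (0.91) and Kif5c (0.90). Each had a positive difference between impaired and unimpaired rats, from 0.53 to 1.05. That shared sign follows from picking them by likeness to Cplx2 on the same arrays and is no separate result. The mean of the 9 standardized members was most alike to Svop (0.87), a transporter-like vesicle protein, then Ap2m1 (0.85), Tubb4b (0.85), Grik5 (0.85) and Gpr162 (0.83).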

How the data were processed

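CA3 RNA of 23 rats was measured on 1 array per animal. The authors deposited log2 values made with GCRMA, per the submitters' processing notes, whose version was not given in the sources used here. GCRMA corrects background, equalises the distributions of the arrays and summarises each probe set, so a shift common to most of an array is lost and weak signals end on a shared lowest value. The table held 31099 probe sets with values from 2.195 to 14.848, and 57 controls among them were set aside. Of the others, 20826 named 1 gene in the platform annotation, 436 named several and 9780 none, and 20758 of the first were matched to RefSeq (assembly GRCr8), which also gave the promoters. Of all pairs of arrays, 0 were identical. The number of arrays limits the precision.

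The filter asked for a log2 value of 4 or more in 6 or more animals and kept 14647 probe sets. A limma model (version 3.58.1 in R 4.3.3) with a mean for each group used all 23 arrays, with 20 residual degrees of freedom and a prior of 2.35, and was tested on simulated data. Moderated two-sided tests were adjusted by Benjamini-Hochberg over all tested probe sets of a comparison, and a probe set passed, or was called, at an adjusted p of at most 0.05. Labels number the animals of a group as biological replicates. Correlations with the control-row gap used 100000 permutations.

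The genes named were set by rule: every member probe set, the other genes of the vesicle cycle that passed in a comparison (at most the 4 largest per list), and the 5 genes most correlated with each called member and with the members' mean. Slc32a1 and Slc30a3, the markers and the genes with an extreme animal were named in addition. The members and the lists were chosen with earlier results of these data known. Alternatives changed the filter, the scaling, the floor, the weights, the arrays fitted, the variance trend, a block on the replicate number and the control-row gap as a term, and left out each animal in turn. Leaving out young 7 and aged unimpaired 6 together was chosen after seeing the data.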

Additional observations from a re-analysis of the deposited data

Results flagged for a closer look

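In 45 groups of values (15 probe sets in 3 groups), 2 held an animal far from the rest of its group, and chance alone gives such an animal in about 5% of groups. In young rats, young 2 had the lowest value of Stx1a 1387360_at, 9.23, with the next at 9.44, a gap of 0.51 of the group's range. In aged unimpaired rats, aged unimpaired 7 had the highest value of Syt1, 8.84, with the next at 8.58, a gap of 0.69 of the range.

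By the threshold, the effects of age in the 2 aged groups differed for 1 member, Cplx2, where the difference of impaired minus unimpaired was 0.77 on the log2 scale (limma adjusted p = 0.0418), since both are taken against the same young rats. This call changed in 10 of the 14 fits that left out 1 aged animal. It was also lost in other settings, such as the control-row gap as a term (limma adjusted p = 0.462). Slc17a7 1368986_at differed by 0.82 and just missed the threshold (limma adjusted p = 0.0504).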

How the results depend on the processing

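Of the comparisons of member probe sets under the 11 settings other than leaving out 1 animal, 616 kept direction and side of the threshold, 26 lost the call, 12 gained one and 6 turned in sign. Syn1 1390196_at in aged impaired rats and both Syn1 probe sets in all aged rats passed under all 11. Syn1 1369251_a_at in impaired against young rats lost its call in 6 of the 11, both changes of scaling included, and Snap25 gained one there with quantile normalization. Member calls in aged impaired against young rats (3) came to 1 with no filter, with the replicate block and with the control-row gap, and those in aged unimpaired against young rats (4) to 2 with no filter and 0 with the replicate block (7 at an unadjusted p under 0.05). Calls between the aged groups (1) came to 0 with no filter, with only the groups compared, with the replicate block, with the gap and without aged unimpaired 6 and young 7 (4 to 6 at an unadjusted p under 0.05), and to 2 with the stricter filter, median centring, quantile normalization, the floor at 4, array weights and the intensity trend, the second being Slc17a7 1368986_at. Calls in all aged rats (4) came to 2 with the replicate block. Leaving out 1 animal gave 2 to 3, 2 to 5, 0 to 5 and 3 to 6 calls in these 4 comparisons. The replicate numbers do not pair the animals. Same-numbered animals correlated at -0.10 to 0.13 between young and aged unimpaired rats and at -0.06 to 0.09 between young and aged impaired rats. Between the aged groups they correlated at -0.14 to 0.11. Over all probe sets, the replicate block left 870 calls in aged impaired and 86 in aged unimpaired against young rats. It left 0 between the aged groups and 527 with both aged groups pooled against young. Signs turned for uncalled differences near 0: for Slc17a7 1368986_at in impaired against young rats to -0.03 with array weights, -0.18 with the gap, -0.07 without aged unimpaired 6 and young 7 and between -0.07 and 0.10 without 1 animal; with the gap for Cplx1 1369811_at against young to -0.05, and between aged groups for Syn2 1382850_at to -0.02 and Syt1 to -0.04. Without 1 animal, Stx1a 1387360_at between aged groups ran from -0.08 to 0.02, Syn2 1369482_a_at in all aged rats from -0.08 to 0.01, and Syn2 1382850_at and Syt1 in impaired against young rats from -0.07 to 0.01 and -0.09 to 0.02. The cause of these shifts was not tested. A probe set at the floor, such as Vamp2 1371160_at, has no measured difference.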
